A study of Mus musculus with 12 samples.

Results

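The MYC network is a set of transcription factors that bind the same DNA element as pairs built around a shared partner. The genes described are Myc, Mycn, Mycl, Max, Mxd1, Mxd3, Mxd4, Mxi1, Mnt and Mlx, which were chosen by their symbols as mapped from the Ensembl IDs of the count files. All 10 of these genes, of 50600 gene IDs in the files, had reads and passed the filter on low counts. RNA-seq libraries of 12 mice were compared, 3 in each of 4 groups, to ask how gene expression differed between NPM-ALK-driven lymphoma, normal thymus and thymus lacking DNMT1, the maintenance DNA methyltransferase. Ctrl samples were thymocytes of mice with a floxed Dnmt1 gene and no Cre (DNMT1 fl/fl, ages 25, 21 and 20 wk). KO samples were thymocytes of DNMT1 fl/fl CD4-CRE mice (20, 20 and 21 wk). ALK samples were T cell lymphoma cells of NPM-ALK+ mice (24, 22 and 31 wk), whose labels name no floxed Dnmt1 allele. ALKKO samples were thymocytes of NPM-ALK+, DNMT1 fl/fl CD4-CRE mice (25, 21 and 19 wk). One library, KO replicate 2, came from a female and the others from males.

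The human NPM-ALK fusion kinase was driven by the Cd4 enhancer-promoter and Cre by Cd4 regulatory sequence, on a mixed C57Bl/6xSV/129 background. The deletion is therefore restricted to the T-cell lineage, and other cells of the thymus keep Dnmt1. ALK differed from Ctrl in the transgene, in malignant transformation and, as far as the labels go, in its Dnmt1 allele at once, and these cannot be told apart. In bulk RNA, fewer cells of a type and less RNA per cell cannot be told apart either.

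As background, MYC, MYCN and MYCL are basic helix-loop-helix leucine zipper proteins that bind DNA only as a dimer with MAX, preferring the E-box CACGTG, and activate genes of ribosome production, nucleotide synthesis and metabolism. MAX also pairs with the MXD proteins, MXI1 and MNT, which recruit SIN3 and histone deacetylases to the same elements and act as repressors. MLX is a MAX-like partner that joins part of the network to the glucose-responsive factors of the MLXIP family. In the thymus, Myc is used by proliferating precursors, and several MXD genes are known to rise as cells leave the cycle.

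The promoter sequences of the repressor and partner genes that were lower in ALK tumors, Mxd4, Mxd1 and Mlx, are shown with that of Mnt, which did not pass the test, because the E-box through which the network acts lies in some of them. Each runs 5′ to 3′ on the strand of the gene, from 250 bases before the RefSeq start (GRCm38.p6) to the last base before the GENCODE M21 gene, and capitals mark the E-box CACGTG. The positions are chr5:34187721-34187960 (minus strand) for Mxd4, chr6:86669162-86669409 (minus strand) for Mxd1, chr11:101087040-101087276 (plus strand) for Mlx and chr11:74830674-74830919 (plus strand) for Mnt.
Mxd4: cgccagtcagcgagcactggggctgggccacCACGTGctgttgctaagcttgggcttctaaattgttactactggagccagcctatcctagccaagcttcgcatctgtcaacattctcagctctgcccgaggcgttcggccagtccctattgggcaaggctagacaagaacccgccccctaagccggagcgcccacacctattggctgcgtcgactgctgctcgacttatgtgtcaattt
Mxd1: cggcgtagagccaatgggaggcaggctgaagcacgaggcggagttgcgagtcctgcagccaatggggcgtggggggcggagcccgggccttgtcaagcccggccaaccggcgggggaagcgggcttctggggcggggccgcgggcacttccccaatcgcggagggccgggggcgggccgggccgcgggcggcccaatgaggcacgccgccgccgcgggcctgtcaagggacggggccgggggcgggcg
Mlx: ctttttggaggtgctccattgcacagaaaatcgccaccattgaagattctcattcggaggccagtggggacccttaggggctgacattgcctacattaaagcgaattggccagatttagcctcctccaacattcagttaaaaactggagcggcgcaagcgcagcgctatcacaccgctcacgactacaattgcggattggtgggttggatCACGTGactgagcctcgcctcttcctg
Mnt: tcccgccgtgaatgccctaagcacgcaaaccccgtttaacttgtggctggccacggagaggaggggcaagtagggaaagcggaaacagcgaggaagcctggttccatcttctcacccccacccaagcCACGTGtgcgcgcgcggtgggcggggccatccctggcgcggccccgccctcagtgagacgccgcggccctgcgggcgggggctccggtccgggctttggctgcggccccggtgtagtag

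RefSeq promoter windows were found for 9 of the 10 genes, all but Myc, 11 windows in all. The E-box CACGTG, which reads the same on both strands, began 219 bases before the start of Mxd4, 123 bases before that of Mnt and 40 bases before that of Mlx. No other of the 11 windows held it. Of 32851 promoter windows of the same 250 bases in the reference, 6.02% did. The STAT-type motif TTCNNNGAA, also palindromic in its fixed letters, was in none of the 11 windows and in 7.02% of all windows. A match is a description of the letters only. Mxd4 and Mlx, with an E-box, and Mxd1, without one in this window, were all lower in ALK than in Ctrl, and Mnt, with an E-box, did not pass the test.

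Between 12473857 and 18864327 reads per library fell on genes, so that 3 reads, taken as the floor, equal 0.159 to 0.24 CPM (counts scaled to a common library total). Alignments to more than 1 place, which are in no gene's count, were 48.45% to 51.84% of everything counted or set aside in ALK and 39.24% to 45.6% in the other groups. The labels were checked on the altered genes. Dnmt1 was 400 to 487 CPM in Ctrl, 206.1 to 244 in KO and 205 to 244 in ALKKO, and Alk was at most 0.431 CPM in Ctrl and KO and 34.9 to 55.0 CPM in ALK and ALKKO. Summed thymocyte markers (12 genes, of which Rag1 was listed at 0 in every library) reached 10845 to 12745 CPM in Ctrl, 9538 to 11387 in ALKKO and 4482 to 5818 in ALK, where Cd4 was 27.5 to 115.9 CPM against 1287 to 1409 in Ctrl. The markers did not all fall. By the test used below, 5 of the 11 tested were lower and 0 higher in ALK than in Ctrl, where 14.7% of all genes were lower. Ptcra was 424.5, 142.4 and 32.5 CPM in ALK and 46.35 to 49.01 in Ctrl. Dntt was 1054 to 2942 CPM in ALK and 1828 to 2061 in Ctrl. KO replicate 2 stood apart, with 2001 CPM of 6 B cell markers and 4364 CPM of thymocyte markers. The B cell markers summed to 56.0 to 95.8 CPM in Ctrl, 52.1 and 55.7 in the other KO libraries, 54.0 to 95.3 in ALKKO and 6.46 to 23.9 in ALK, where 5 of the 6 were below all Ctrl mice and 1, Cd79b, passed the test used below (adjusted p = 0.0362). Summed markers of thymic epithelium and stroma (9 genes) were 979 to 1886 CPM in ALK and 757 to 938 in the thymus groups, with Col1a1, Col3a1 and Pdgfrb higher and Krt8, Psmb11 and Foxn1 lower in ALK than in Ctrl, and the part of such cells in the results for ALK was not tested.

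Myc rose in ALK tumors and was the gene of the network with the highest level there, while 3 of the 10 genes, Mycl, Mxd1 and Mxd4, fell by more than 1 on the log2 scale. Of the 10 genes, 5 changed between ALK and Ctrl at an adjusted p under 0.05 (quasi-likelihood test of edgeR, Benjamini-Hochberg adjusted over 16052 genes, the source of every adjusted p given here), 1 of them higher and 4 lower. Over all genes tested, 29.5% passed, 14.8% higher and 14.7% lower, and 20.4% also had an absolute log2 fold change above 1, as did 4 of the 10 network genes. The median log2 fold change was -0.32 over the network and 0.05 over all genes. The levels of the 3 ALK mice lay outside those of the 3 Ctrl mice for 6 of the 10 genes, against 46.4% of all genes. The smallest p of an exact permutation test of 3 against 3 mice is 0.1, so the fit across all genes was used for single genes.

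**Figure D1:**
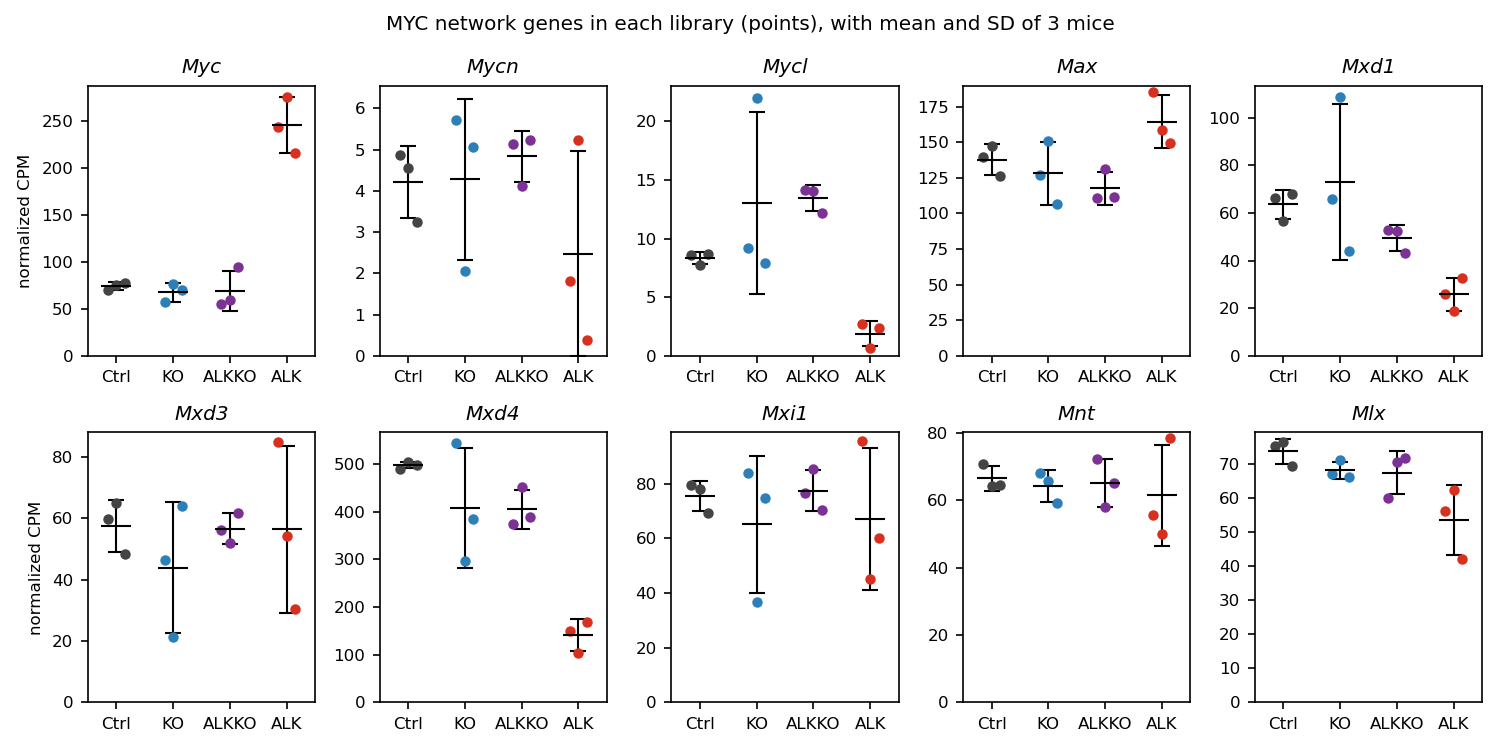
Normalized CPM (linear axis from 0) of each of the 10 MYC network genes by group; points are the 3 mice, horizontal bars the means and whiskers the SD. Myc reads 217 to 276 CPM in ALK and 55.6 to 94.2 in the other groups, while Mycl, Mxd1 and Mxd4 lie lowest in the 3 ALK mice.

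The activators came first. Myc (chr15:61985391-61990374, plus strand, GRCm38) was 69.8, 75.8 and 77.4 CPM in the 3 Ctrl mice, 56.9, 76.7 and 70.4 in KO, 55.6, 59.1 and 94.2 in ALKKO, and 244, 276 and 217 in ALK. The ALK mice were all above every other mouse, and the Ctrl, KO and ALKKO mice overlapped. The mean was 246 ± 29.8 CPM in ALK and 74.3 ± 4.0 CPM in Ctrl (SD, n = 3 each), a log2 fold change of 1.72 ± 0.21 (SE) or 3.3-fold (adjusted p = 0.000553). Against ALKKO, the other group with the transgene, Myc was higher by 1.82 ± 0.21 on the log2 scale (adjusted p = 0.0005123).

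Mycl (chr4:122995652-123002485, plus strand), the family member described mainly in dendritic cells and in lung, went the other way. It was 8.61, 7.72 and 8.68 CPM in Ctrl, 9.22, 22.0 and 7.95 in KO, 14.2, 14.1 and 12.2 in ALKKO and 2.69, 0.698 and 2.35 in ALK, from 8 to 255 reads per library. ALK mice were below all others, the highest value was KO replicate 2, and the 3 ALKKO mice were above the 3 Ctrl mice. Mycl fell by 2.11 ± 0.51 (SE) on the log2 scale in ALK against Ctrl, 4.33-fold (adjusted p = 0.01255), and by 2.81 against ALKKO (adjusted p = 0.00407). The B cell markers were likewise lowest in ALK and highest in KO replicate 2, and their part in the level of Mycl was not tested.

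Mycn (chr12:12936093-12941914, minus strand), used by early lymphoid and neural precursors, was low throughout. It was 4.86, 4.56 and 3.23 CPM in Ctrl, 5.72, 2.07 and 5.06 in KO, 5.15, 4.13 and 5.24 in ALKKO and 1.81, 5.24 and 0.391 in ALK. ALK replicate 2 lay above the Ctrl range and ALK replicates 1 and 3 lay below it, and the lowest, ALK replicate 3, rested on 5 reads. The log2 fold change of ALK against Ctrl was -0.77 with a 95% confidence interval from -2.35 to 0.81 (adjusted p = 0.4411), so a difference of this size was not detectable at this depth and spread. Of the 3 activators, then, Myc rose, Mycl fell and Mycn did not pass the test.

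Max (chr12:76937269-76962201, minus strand) encodes the partner that every activator and most repressors of the network need. It was 140, 147 and 126 CPM in Ctrl, 127, 151 and 106 in KO, 111, 131 and 111 in ALKKO and 185, 159 and 149 in ALK. All 3 ALK mice were above all 3 Ctrl mice, by a small margin, and KO replicate 2 lay within the ALK range. The log2 fold change against Ctrl was 0.26, with an interval from -0.08 to 0.59 (adjusted p = 0.218). Against ALKKO, Max rose by 0.48 ± 0.15 on the log2 scale (adjusted p = 0.03584). Leaving out Ctrl 1 or 2, KO 1, ALK 1 or 2, or any ALKKO replicate ended this call, with adjusted p up to 0.1253.

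Mlx (chr11:101087277-101092207, plus strand) was 75.5, 76.4 and 69.4 CPM in Ctrl, 67.0, 71.2 and 66.3 in KO, 60.2, 70.7 and 71.9 in ALKKO and 56.4, 62.3 and 42.2 in ALK. Every ALK mouse was below every Ctrl mouse, and ALK overlapped ALKKO. Mlx fell by 0.46 on the log2 scale in ALK against Ctrl, 1.38-fold (adjusted p = 0.03829). The call was lost without Ctrl 1, 2 or 3, ALK 1 or 3, or ALKKO 3, at adjusted p of 0.05099 to 0.09892. The last exons of Mlx overlap Psmc3ip on the opposite strand (73 to 342 reads), and the strand setting of the counting is not given in the sources used here, so its level is uncertain.

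Mxd4 and Mxd1 were the repressors that fell. Mxd4 (chr5:34173883-34187720, minus strand) was the most abundant repressor of the thymus, at 491, 504 and 498 CPM in Ctrl, 544, 296 and 384 in KO, 374, 452 and 390 in ALKKO and 151, 104 and 169 in ALK. The ALK mice were below every other mouse, and the lowest of the remainder was KO replicate 2. Exons of Mxd4 overlap Gm42846 on the opposite strand (0 to 2 reads), so with the strand setting not given its level is uncertain too. Mxd4 fell by 1.82 ± 0.24 (SE) on the log2 scale in ALK against Ctrl, 3.52-fold (adjusted p = 0.0007897), and by 1.52 against ALKKO (adjusted p = 0.001742).

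Mxd1 (chr6:86647042-86669161, minus strand), the founding MAD repressor, was 66.3, 56.5 and 67.9 CPM in Ctrl, 66.0, 109 and 44.1 in KO, 52.9, 52.6 and 43.2 in ALKKO and 25.8, 19.0 and 32.7 in ALK. ALK mice were again below all others, and the highest value was that of KO replicate 2. Mxd1 fell by 1.30 ± 0.30 on the log2 scale in ALK against Ctrl, 2.46-fold (adjusted p = 0.01041), and by 0.94 against ALKKO (adjusted p = 0.03962). The last call was lost without any 1 of Ctrl 1, 2 or 3, ALK 1 or 2, or ALKKO 1, 2 or 3, with adjusted p up to 0.1166.

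The other 3 repressors did not pass the test between ALK and Ctrl. Mxd3 (chr13:55325168-55329823, minus strand), a member of the family that is expressed in the S phase of cycling cells, was 59.7, 64.9 and 48.3 CPM in Ctrl, 46.4, 21.4 and 64.0 in KO, 56.2, 52.0 and 61.9 in ALKKO and 84.9, 54.1 and 30.5 in ALK. The ALK mice were spread on both sides of Ctrl, and the lowest of all 12 libraries was KO replicate 2. The log2 fold change was -0.03, with an interval from -0.91 to 0.85 (adjusted p = 0.9649), and Mxd3 shares its last exon bases with the more abundant Prelid1 on the opposite strand, so its level is uncertain. The marker of cycling cells Mki67 stood in the same order in the ALK mice, at 1577, 1380 and 590 CPM, and was lowest of all in KO replicate 2, at 414 CPM.

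Mxi1 (chr19:53310518-53375810, plus strand) was 79.3, 78.1 and 69.3 CPM in Ctrl, 84.0, 36.6 and 74.6 in KO, 76.6, 85.3 and 70.4 in ALKKO and 95.7, 45.2 and 60.3 in ALK. One ALK mouse was above all Ctrl mice and the others were below them. Its log2 fold change was -0.17, from -0.86 to 0.52 (adjusted p = 0.7096). Mnt (chr11:74830920-74845725, plus strand), the repressor expressed in most cells whether cycling or not, was 70.7, 64.3 and 64.7 CPM in Ctrl, 68.1, 65.8 and 59.1 in KO, 72.2, 58.0 and 65.3 in ALKKO and 55.8, 50.1 and 78.6 in ALK. The ALK mice lay on both sides of Ctrl, and the log2 fold change was -0.11, from -0.48 to 0.26 (adjusted p = 0.6376). The interval for Mnt leaves out changes as large as those of Mxd1 and Mxd4.

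**Figure D2:**
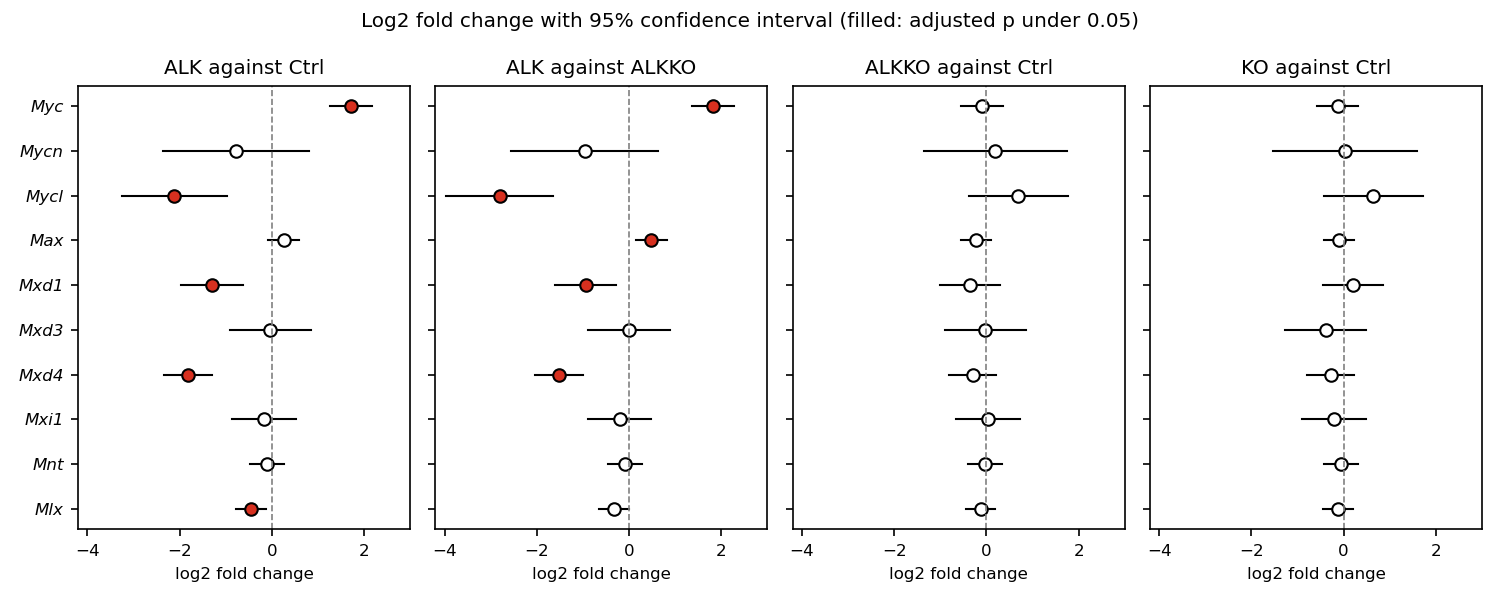
Log2 fold change (x axis) of each network gene in 4 comparisons, with 95% confidence intervals from edgeR's fit over 12 libraries; filled points have an adjusted p under 0.05. Myc is at 1.72 and Mxd4 at -1.82 in ALK against Ctrl, and no point is filled in ALKKO against Ctrl or KO against Ctrl.

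The thymi that carried the transgene but lacked Dnmt1 showed a network close in level to that of Ctrl. None of the 10 genes changed between ALKKO and Ctrl, where 0.187% of all genes passed, between KO and Ctrl (0.0187% of all genes) or between ALKKO and KO (0.00623%). In each of these comparisons 0 of the 10 genes had an unadjusted p under 0.05 by edgeR, and DESeq2 also gave 0 by adjusted and by unadjusted p. For Myc the interval of ALKKO against Ctrl ran from -0.54 to 0.35 on the log2 scale, which does not reach the difference between ALK and Ctrl. For Mycl it ran from -0.38 to 1.76, so a moderate difference could not be seen with these mice.

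In ALKKO the 3 mice lay outside the Ctrl range for 3 of the 10 genes, against 17.5% of all genes. These were Mycl, with a log2 fold change of 0.69, Mxd1, at -0.36, and Mxd4, at -0.30, all at an adjusted p of 0.9998. No network gene separated KO from Ctrl in this way, against 12.4% of all genes. The largest differences there were those of Mycl, at 0.64, and Mxd3, at -0.39, and without KO replicate 2 they were 0.05 and -0.06. Between ALKKO and KO the largest was that of Mxd1, at -0.56, which was -0.15 without that library. Markers of macrophages and granulocytes (7 genes, of which Itgam was listed at 0 in every library) summed to 2235 CPM in KO replicate 2. They were 619 and 429 CPM in the other KO libraries, 413 to 504 in Ctrl, 561.1 to 581.5 in ALKKO and 203 to 792 in ALK. The part that these markers and the B cell markers play in the differences among the thymus groups was not tested.

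Direct comparison of the 2 groups with the transgene gave 5 changed genes of 10, where 28.1% of all genes passed, 13.4% higher and 14.7% lower. Myc and Max rose and Mycl, Mxd1 and Mxd4 fell, and 3 of them, Myc, Mycl and Mxd4, also had an absolute log2 fold change above 1, against 19.6% of all genes. The count was 3 when any 1 of Ctrl 1 or 2, ALK 1 or 2, or ALKKO 1, 2 or 3 was left out, since Max and Mxd1 were then lost. Both comparisons use the same ALK mice.

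The difference of the NPM-ALK effect itself was tested as ALK against Ctrl minus ALKKO against KO. It passed for 2 of the 10 genes, against 10.3% of all genes. For Myc the difference was 1.69 ± 0.29 on the log2 scale (adjusted p = 0.008049), and for Mxd4 it was -1.81 ± 0.33 (adjusted p = 0.01024). For Mycl it was -2.16 (adjusted p = 0.07431). Without KO replicate 2 the count was 4, with Mxd1 and Mycl added. ALK samples were tumors and ALKKO samples thymocytes, so the loss of Dnmt1 and the absence of a tumor cannot be told apart in this difference.

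To compare levels between genes, CPM was divided by the length of the merged exons of each gene. Mlx, Mxd3, Mxd4 and Mxi1 share exon bases with genes on the opposite strand, and the strand setting of the counting is not given. Their places in the orders, the shares and the ratio below are therefore uncertain. In Ctrl the order of mean CPM per kb was Mxd4 at 58.7, Max at 38.3, Mlx at 36.9, Myc at 27.4, Mxd3 at 24.3, Mnt at 14.4, Mxi1 at 11.1, Mxd1 at 8.99, Mycl at 2.06 and Mycn at 1.28. The ranges of Max and Mlx overlapped, as did those of Myc and Mxd3, and all other neighbours were separate. In ALK the order was Myc at 90.4, Max at 45.7, Mlx at 26.8, Mxd3 at 23.9, Mxd4 at 16.6, Mnt at 13.3, Mxi1 at 9.83, Mxd1 at 3.65, Mycn at 0.753 and Mycl at 0.473. Myc and Max stood apart from each other and from the rest there, whereas the ranges of Mlx, Mxd3, Mxd4, Mnt and Mxi1 formed a chain in which each overlapped the next, and those of Mycn and Mycl overlapped.

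In KO and ALKKO Mxd4 was again first, at 48.1 and 47.8 CPM per kb, and Myc followed Max and Mlx, at 25.0 and 25.6. Mxd4 thus had the highest mean in the 3 thymus groups and Myc in the tumors. In KO the ranges of Mxd4 and Max overlapped, since in KO replicate 2 Mxd4 was at 34.9, below Max at 42.0 and Mlx at 35.6, and all neighbours in the KO order overlapped but Mlx and Myc, and Mycl and Mycn. In ALKKO Mxd4 stood apart, and Mlx, Max, Myc and Mxd3 each overlapped the next. As a share of the summed CPM per kb of the 10 genes, Myc made up 12.3% ± 0.948 in Ctrl, 12.6% ± 2.57 in KO, 12.7% ± 3.41 in ALKKO and 39.2% ± 4.07 in ALK (SD, n = 3 each). The share of Mxd4 was 26.3% ± 0.970 in Ctrl and 7.29% ± 2.21 in ALK. These shares count RNA and say nothing of protein.

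**Figure D3:**
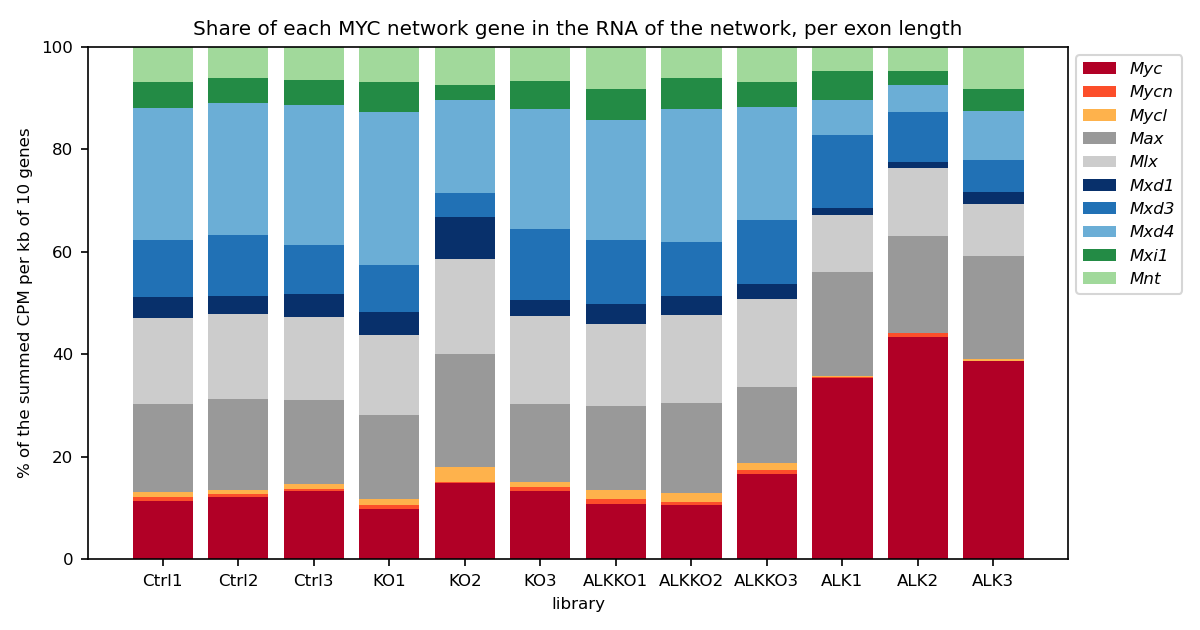
Share of each gene (%, stacked to 100) in the summed CPM per kb of the 10 network genes, 1 bar per library. Myc takes 35.4% to 43.5% in the 3 ALK libraries and 9.80% to 16.6% in the other 9.

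The ratio of Myc to the sum of its antagonists Mxd1, Mxd3, Mxd4, Mxi1 and Mnt, per kb of exon, was 0.215, 0.232 and 0.252 in Ctrl, 0.174, 0.358 and 0.254 in KO, 0.200, 0.202 and 0.338 in ALKKO and 1.08, 1.84 and 1.26 in ALK. The 3 ALK tumors were above all other libraries. Per kb of exon the ratio was over 1 in all 3, and without division by exon length it was 0.591, 1.01 and 0.585 in ALK and 0.0911 to 0.103 in Ctrl. The mean in ALK was 1.39 ± 0.397, 5.97 times that in Ctrl (0.233 ± 0.0185, SD, n = 3). The ratio is given without a test because its genes were chosen with their values known.

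The remaining genes of the wider network were examined as lists, which were chosen with earlier results of these data known. Among other partners, Mga, a MAX partner that also carries a T-box, Mlxip and Mlxipl, 0 of 3 changed in ALK against Ctrl (1 at an unadjusted p under 0.05, and 1 by DESeq2). Mlxipl was 6.39 to 29.4 CPM in Ctrl, 1.64 to 39.4 in KO, 2.18 to 34.8 in ALKKO and 0.0873 to 3.56 in ALK, and its log2 fold change of -3.57 did not pass (adjusted p = 0.08592). The ranges within the thymus groups were wide for this gene.

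Of 27 cofactors and genes of MYC turnover, 12 changed in ALK against Ctrl, 9 higher and 3 lower, with a median log2 fold change of 0.17, where 29.5% of all genes passed, 14.8% higher and 14.7% lower. Kat2a, the acetyltransferase of the SAGA complex that MYC recruits, rose by 1.39 on the log2 scale (adjusted p = 0.001773), from 65.7 to 76.3 CPM in Ctrl to 137 to 243 in ALK. Usp36, a nucleolar deubiquitinase that stabilises MYC, rose by 0.92 (adjusted p = 0.005198). Bin1, a MYC-interacting adaptor with properties of a tumor suppressor, fell by 2.90 (adjusted p = 0.003015), from 62.4 to 74.7 CPM to 5.33 to 15.4, and was highest in KO replicate 2, at 171 CPM. Pim1, a kinase that acts with MYC and is a target of STAT signaling, fell by 1.41 in ALK (adjusted p = 0.001195). In ALKKO, Pim1 was 109 to 143 CPM, above all Ctrl mice (69.0 to 82.3), although the log2 fold change of 0.73 did not pass (adjusted p = 0.5492).

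Genes known to be activated by MYC were mostly higher in ALK tumors. Of 31 genes on the list 30 were tested, and 27 changed, 26 higher and 1 lower, with a median log2 fold change of 1.12 where that of all genes was 0.05 and 14.8% of all genes were higher. Tfrc, the transferrin receptor, rose by 2.10 (adjusted p = 0.01009), with 871 CPM in ALK 1 and 222 and 208 in the other ALK mice against 90.7 to 108 in Ctrl. Without ALK 1 its log2 fold change was 1.08. Cad, the enzyme that starts pyrimidine synthesis, rose by 1.93 (adjusted p = 0.0009003), at 331, 255 and 199 CPM in ALK and 63.8 to 75.9 in Ctrl. Ccnd2, a D-type cyclin, was the 1 gene of the list that fell, by 4.12 (adjusted p = 0.0008586), from 125 to 169 CPM in Ctrl to 5.06 to 14.2 in ALK, and was highest in KO replicate 2, at 432 CPM. The part of the B cell markers, which stood in the same way, in the levels of Bin1 and Ccnd2 was not tested.

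Genes known to be repressed by MYC changed in 4 of 10 cases, all lower, with a median log2 fold change of -0.89, a count to be read against the 29.5% of all genes that passed and the 14.7% that were lower. Cebpa, a myeloid transcription factor, fell by 2.63 (adjusted p = 0.01778), and Cdkn1a, the cell cycle inhibitor p21, fell by 1.38 (adjusted p = 0.04782). The Cdkn1a call was lost without any 1 of 8 libraries, with adjusted p up to 0.1328, and that of Cebpa without Ctrl 3 (adjusted p = 0.06201) or ALK 2 (adjusted p = 0.06005). Cebpa was highest in KO replicate 2, at 146 CPM. Of 5 MLX-dependent glucose-response genes 4 were tested and 0 changed by either tool, at any p under 0.05. Fasn and Acaca varied widely among mice, at 194 to 2196 and 17.1 to 172 CPM within ALKKO. Their intervals in ALK against Ctrl ran from -3.505 to 0.52 and from -2.2 to 1.59 on the log2 scale. Large changes of these genes could therefore not be seen, and for Fasn every ALK mouse was below every Ctrl mouse. Cebpa was 17.98, 110.6 and 47.71 CPM in ALKKO 1, 2 and 3, the same order as Fasn, Acaca and Mlxipl. These genes also shared an order in Ctrl. In KO all were lowest in replicate 1, with Cebpa highest in KO 2 and the others in KO 3. The macrophage and granulocyte markers summed to 561.1 to 581.5 CPM in ALKKO. The part of this shared variation in the fall of Cebpa was not tested.

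Proliferation markers did not pass in ALK against Ctrl, with 0 of 12 changed by edgeR or DESeq2, adjusted or not. In edgeR 29.5% of all genes passed there. The log2 fold changes of the 12 markers were all positive, from 0.09 to 0.67, with a median of 0.40. Summed, the markers were 5523, 4997 and 2401 CPM in ALK 1, 2 and 3 and 2888 to 3695 CPM in Ctrl. Mki67 had a log2 fold change of 0.56, from -0.23 to 1.34 (adjusted p = 0.2603), and without ALK 3 it rose by 0.86 (adjusted p = 0.04088). Against ALKKO, where 28.1% of all genes passed, 28 of 30 MYC-activated genes changed, 27 of them higher, as did 14 of 27 cofactors, 11 of them higher, 2 of 10 MYC-repressed genes, both lower, and 1 of 12 proliferation markers, higher. The shares of MYC-repressed genes and proliferation markers were below that of all genes. In the 3 comparisons among the thymus groups, 0 genes of any of these lists passed by edgeR or by DESeq2. At an unadjusted p under 0.05 edgeR gave 1 MYC-activated gene in KO against Ctrl and 1 in ALKKO against Ctrl, 1 to 3 cofactors in each comparison, 1 MYC-repressed gene in ALKKO against Ctrl and none of the other lists. The difference of the NPM-ALK effect passed for 17 of 30 MYC-activated genes, against 10.3% of all genes, 16 of them larger in ALK against Ctrl.

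**Figure D4:**
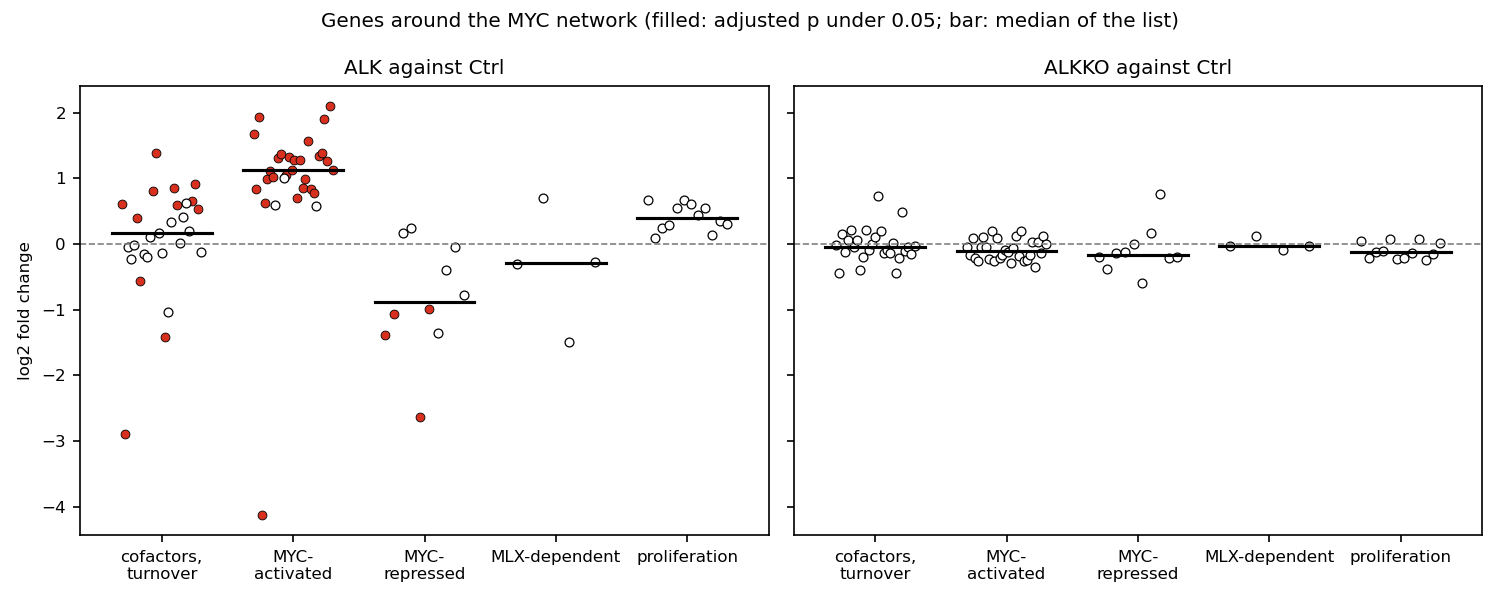
Log2 fold change (y axis) of the genes of 5 lists around the network in ALK against Ctrl (left) and ALKKO against Ctrl (right); each point is a gene, filled where the adjusted p is under 0.05, and bars are list medians. The median of the MYC-activated genes is 1.12 on the left and -0.11 on the right, where no point is filled.

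Over the 12 libraries, the genes most like Myc were sought by the root mean square difference of log2 CPM, each gene centred on its own mean, among 14593 genes whose mean was 1 CPM or more. They were Ydjc (0.182), Mettl13 (0.184), Gnl3 (0.193), Apex1 (0.209) and Tada2a (0.222). Gnl3, a nucleolar GTPase, and Apex1, a DNA repair endonuclease, were also on the list of MYC-activated genes. That list was chosen with earlier results of these data known, so the overlap is a description only. Gnl3 was 55.0 to 70.5 CPM in Ctrl and 150 to 177 in ALK, and Mettl13, a methyltransferase of a translation elongation factor, was 17.6 to 18.3 CPM in Ctrl and 57.2 to 76.5 in ALK. The libraries share the split between tumors and thymi, and likeness measured over them includes that split.

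Within the network the genes most alike were Mnt and Mlx, at 0.314, then Max and Mnt, at 0.322, and Mxd3 and Mxi1, at 0.336. Mxd3 and Mxi1 were both lowest in KO replicate 2 and both highest in ALK 1. The repressors that fell together, Mxd1 and Mxd4, differed by 0.476, with KO replicate 2 highest for Mxd1 and lowest of the thymi for Mxd4. The gene of the network nearest to Myc was Max, at 0.674.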

How the data were processed

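Poly(A) RNA of 12 mice, 3 in each of 4 groups, was sequenced by the authors as stranded single-end libraries. The authors trimmed the reads with Trim Galore, aligned them to mm10 with STAR and deposited raw counts per gene from HTSeq, without normalization. Tool versions, annotation release and strand setting are not given in the sources used here. Groups, ages and sexes came from the labels.

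Gene IDs (50376 of 50600) were matched to GENCODE M21 on GRCm38. Counts were analysed with edgeR 4.0.16 in R 4.3.3: filterByExpr kept 16052 genes, TMM scaled the libraries, and the quasi-likelihood test was fitted over 12 libraries with 1 term per group. Changed means a Benjamini-Hochberg adjusted p under 0.05. CPM values use TMM-scaled library sizes, with merged exon length where levels of genes are compared. The fit was tested on simulated data. Counts on genes ranged from 12473857 to 18864327 reads (median 15262212), and floors from them cover counting error only. The 95% confidence intervals come from the quasi-likelihood fit and include the spread between mice. Libraries of a group differed by more than counting error (chi-square divided by its degrees of freedom, 13.5 or more for every pair).

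Named genes outside the network are up to 2 of each list with the largest rise and up to 2 with the largest fall in ALK against Ctrl among those that passed, the 5 genes most like Myc, and Dnmt1, Alk and Mki67. Pim1 in ALKKO, the Mlxipl levels, the order of Cebpa among mice, Cd4, Ptcra, Dntt, Cd79b and the named stroma markers were added after their values were seen. The network genes and lists were chosen with earlier results of these data known. Alternatives were DESeq2 1.42.0, DESeq2 size factors, other count filters, a block for the replicate number, a covariate for sex or for age, a fit restricted to the groups compared, and leaving out each library. Promoter sequences are those of RefSeq.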

Additional observations from a re-analysis of the deposited data

Results flagged for a closer look

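The test of the difference itself passed for 2 of the 10 network genes, against 10.3% of all genes. For these the NPM-ALK effect differed between mice with and without Dnmt1. ALK samples were tumors and ALKKO samples thymocytes, so the loss of Dnmt1 and the absence of a tumor cannot be told apart here. For Myc the effect was larger by 1.69 on the log2 scale in ALK against Ctrl than in ALKKO against KO. For Mxd4 the difference was -1.81 in the same contrast. Both differences passed at an adjusted p under 0.05 in edgeR's quasi-likelihood test, and both were past it in all 19 alternatives in which they could be computed, at adjusted p of at most 0.03405 for Myc and 0.02925 for Mxd4. With 3 mice in each group, no group was tested for single outlying samples.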

How the results depend on the processing

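In ALK against Ctrl, Myc (log2 fold change 1.61 to 1.91), Mxd1 and Mxd4 passed in all 20 alternatives and Mycl in the 19 that tested it. The fall of Mlx was lost in 9 of 20 (adjusted p 0.00798 to 0.1238), and in ALK against ALKKO the calls of Max and Mxd1 were lost in 11 and 9 of 20. The count of 5 changed genes in ALK against ALKKO became 3 with at least 10 counts in every library, where Mycl and Mycn were set aside by the filter, and 3 with an absolute log2 fold change above 1 as well. Leaving out 1 library gave 3 to 5 there, 4 to 5 in ALK against Ctrl, 0 in each comparison among the thymus groups and 2 to 4 for the difference of the NPM-ALK effect, the 4 without KO replicate 2. The ratio of Myc to its antagonists in ALK was 0.730 without division by exon length and 1.17 to 1.55 without 1 ALK library. Mxd3 in ALK against Ctrl changed sign to 0.12 with age as a covariate, 0.05 without Ctrl replicate 2 and 0.26 without ALK replicate 3 (range without 1 library -0.44 to 0.26), and Mxi1 to 0.027 without ALK replicate 2 (range -0.52 to 0.027). The cause was not tested. Over all 60 pairs of a network gene and a comparison, 52 of 1178 estimates changed sign, none of them past the threshold in either fit.

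Same-numbered libraries correlated at -0.106 to 0.426, highest for KO 1 with ALKKO 1, and 0 to 4 of 6 libraries in a comparison were closest to their own number. These values do not settle whether the replicate numbers pair the mice. With the replicate block, 5 genes changed in ALK against Ctrl, 4 in ALK against ALKKO, where Mxd1 was lost, 0 in each comparison among the thymus groups and 2 in the difference of the NPM-ALK effect. Depth limits Mycn (5 to 108 reads) and Mycl (8 to 255 reads) most.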
